A study of Mus musculus with 12 samples.

Results

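RNA of the cardiomyocyte fraction and of the non-cardiomyocyte fraction of the heart was compared in aged (18 months) mice. Of the 38282 genes in the table, 15032 (39.3%) averaged 1 FPKM or more across the 6 aged libraries and are described here. FPKM is the number of fragments per kilobase of transcript, scaled to the mapped reads of a library. The groups are aged cardiomyocytes (CM, 3 libraries) and aged non-cardiomyocytes (nonCM, 3 libraries). All mice were untreated males from Charles River, and a strain is not given in the sources used here. The hearts were perfused on a Langendorff apparatus, digested with enzymes and separated by centrifugation. The nonCM fraction thus holds heart cells that did not sediment with the myocytes, and losses of cells are not given in the sources used here. Libraries of young (8 weeks) mice, again 3 per fraction, entered the fit to estimate the spread. Each library is named by its column number, as CM-0, CM-1, CM-2, nonCM-0, nonCM-1 and nonCM-2, and values of 3 libraries are given in that order. At the edge of the definition, Plk1 and BC147527 averaged 1.0004 and 1.0013 FPKM and lay just inside, and Slc4a1 with 0.99986 FPKM and Hoxd4 with 0.9992 FPKM lay just outside.

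Cardiomyocytes fill most of the volume of the ventricle but are outnumbered by other cells. They contract through sarcomeres, release calcium from the sarcoplasmic reticulum at every beat, are coupled end to end by intercalated discs, and make nearly all of their ATP in mitochondria, mainly from fatty acids. The remaining cells are chiefly endothelial cells of the dense capillary bed, fibroblasts that make the matrix, macrophages, and the pericytes and smooth muscle cells of vessel walls. Because whole fractions were sequenced, fewer cells of a type and less RNA per cell cannot be told apart.

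The 4 marker genes separated the fractions in the labelled direction, but the 3 CM libraries differed widely among themselves. Tnnt2, cardiac troponin T of the thin filament, stood at 10221, 15617 and 3104 FPKM in CM-0, CM-1 and CM-2, and at 791, 812 and 1041 FPKM in the nonCM libraries. The fractions did not overlap, and the mean was 10.9-fold higher in CM (9647 ± 6276 against 881 ± 139 FPKM, SD, n = 3 each). CM-2 was the library of lowest Tnnt2, at 24.0% of the mean of the other 2 CM libraries. Pecam1, an adhesion molecule of endothelial cells, stood at 148, 55.2 and 264 FPKM in CM and at 315, 285 and 294 FPKM in nonCM. Col1a1, a chain of fibrillar collagen made by fibroblasts, stood at 50.7, 15.2 and 82.3 FPKM in CM and at 107, 132 and 133 FPKM in nonCM. Csf1r, the growth factor receptor of macrophages, stood at 38.0, 10.02 and 52.0 FPKM in CM and at 74.1, 76.3 and 76.7 FPKM in nonCM. For each of these 3 genes CM-1 was lowest and CM-2 highest among the CM libraries, and CM-2 lay just below the lowest nonCM library for Pecam1. In nonCM their means were 1.92-fold, 2.51-fold and 2.27-fold higher. No marker was near 0 in any library. The part of a different mix of cells in the spread of the CM libraries was not tested.

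**Figure D1:**
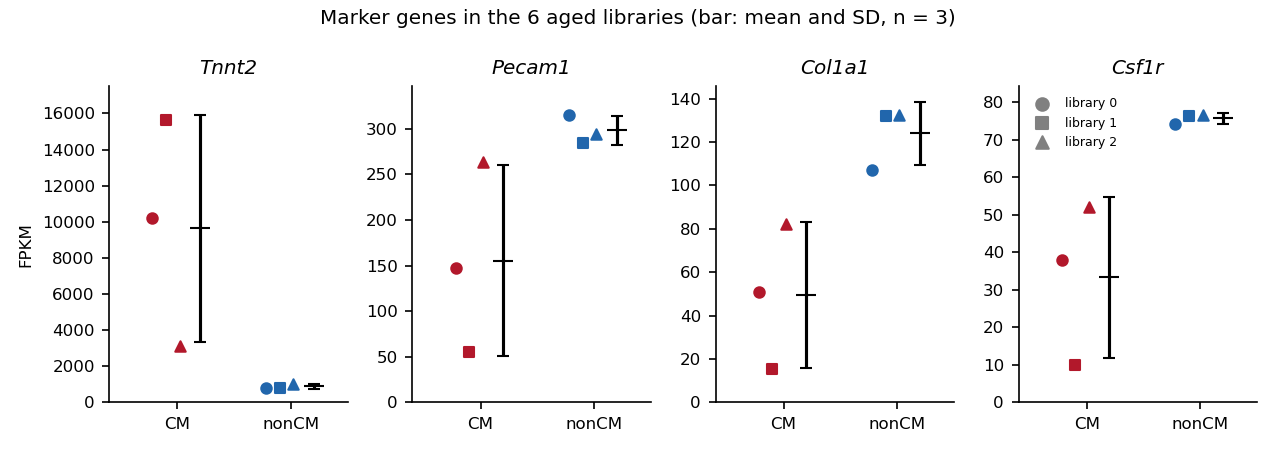
FPKM (y axis) of Tnnt2, Pecam1, Col1a1 and Csf1r in the 3 CM (red) and 3 nonCM (blue) libraries, with symbols for the library number and bars for the mean and SD (n = 3). The CM libraries of Tnnt2 spread from 3104 to 15617 FPKM, all above the nonCM libraries, and the 3 other markers are lower in each CM library than in each nonCM library.

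The difference of each gene was tested with limma on log2(FPKM + 0.1), and p-values were adjusted by the Benjamini-Hochberg method over all 20038 genes tested. The difference (CM minus nonCM) was 3.18 for Tnnt2 (SE 0.54, adjusted p = 0.00323), -1.62 for Col1a1 (SE 0.51, adjusted p = 0.0375) and -1.48 for Csf1r (SE 0.49, adjusted p = 0.042). Pecam1 missed the threshold of 0.05 with all libraries (-1.21, SE 0.44, adjusted p = 0.0559) and passed it without CM-2 (-1.72, adjusted p = 0.00262). Without CM-2 the difference was 3.85 for Tnnt2, which is given with no test because CM-2 was chosen by its low Tnnt2. It was -2.15 for Col1a1 (adjusted p = 0.00444) and -1.95 for Csf1r (adjusted p = 0.00646). Genes that follow Tnnt2 across the CM libraries, in either direction, share in this choice. Their p-values and counts without CM-2, here and below, are therefore descriptions and not independent tests. The two-sided exact permutation test, run on 3 CM against 3 nonCM libraries, gave p = 0.1 for each of the 4 genes, the smallest p that it allows. With quantile normalization the difference of Tnnt2 was 1.79. The calls of Col1a1 and Csf1r lay close to the threshold: both were also lost when other single libraries were left out, young ones included, although the difference kept its direction. Differences are on the log2(FPKM + 0.1) scale and understate the difference of low genes.

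Of the 15032 genes, 5997 passed the test, 3554 higher in CM and 2443 lower, and 9361 passed the test without CM-2 (4803 higher, 4558 lower). Over all genes tested the background was 32.6% called with all libraries (19.5% higher and 13.1% lower) and 52.8% without CM-2 (26.8% higher and 26.0% lower). Both fits called 3546 genes higher and 2408 lower, and 0 genes were called in opposite directions. The libraries of both fractions did not overlap in 4203 genes that were higher in CM and in 4358 that were lower, against 24.1% and 25.4% of all genes tested. Leaving out any other aged library in place of CM-2 gave 2092 to 2573 genes higher and 320 to 941 lower, so the count of lower genes depended most on single libraries. The fit to the 6 aged libraries alone, with no young libraries to inform the spread, called 16 of the 15032 genes. The aged libraries alone without CM-2 gave 7979 (4348 higher and 3631 lower). When every library was scaled to the same FPKM sum, the split became 2055 higher and 7528 lower, and quantile normalization gave 3268 higher and 3624 lower. The first of these scalings moved the median difference of the 15032 genes from -0.06 to -0.72, since FPKM sums were 883457, 1083074 and 605614 in CM and 526104, 508669 and 525817 in nonCM.

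Among called genes, the difference was at least 2 on the log2 scale in 1072 genes higher in CM and in 49 genes lower in CM (1491 and 430 without CM-2), and at least 5 in 15 and 25 genes. These counts include genes that reached 1 FPKM in a single fraction (636 in CM, 585 in nonCM). Among the 13811 genes at 1 FPKM or more in both fractions they were 822 and 16 for a difference of 2, and 2 and 4 for a difference of 5. The genes at -5 or below include genes listed at 0 in CM. Among the genes called with all libraries, which were selected on this difference, CM-2 lay between the nonCM mean and the mean of the other 2 CM libraries in 99.4% of the genes called higher and 97.5% of those called lower, and CM-1 was farthest from nonCM, then CM-0, then CM-2, in 94.8% and 90.1% of them. CM-2 was 1.07 below the other 2 CM libraries in the median gene called higher and 0.88 above them in the median gene called lower, and over all 15032 genes the median of its difference from them was -0.03. Across genes, its Spearman correlation was 0.936 and 0.922 with CM-0 and CM-1 and 0.931 to 0.938 with the nonCM libraries. The number of genes above 0 was similar in all 6 libraries (20597 to 21628). Relative read depth, estimated from low values and set to 1 for the deepest of all 12 libraries, was 0.572, 0.646 and 0.561 in CM and 0.518, 0.94 and 0.657 in nonCM. Its part in the differences was not tested.

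**Figure D2:**
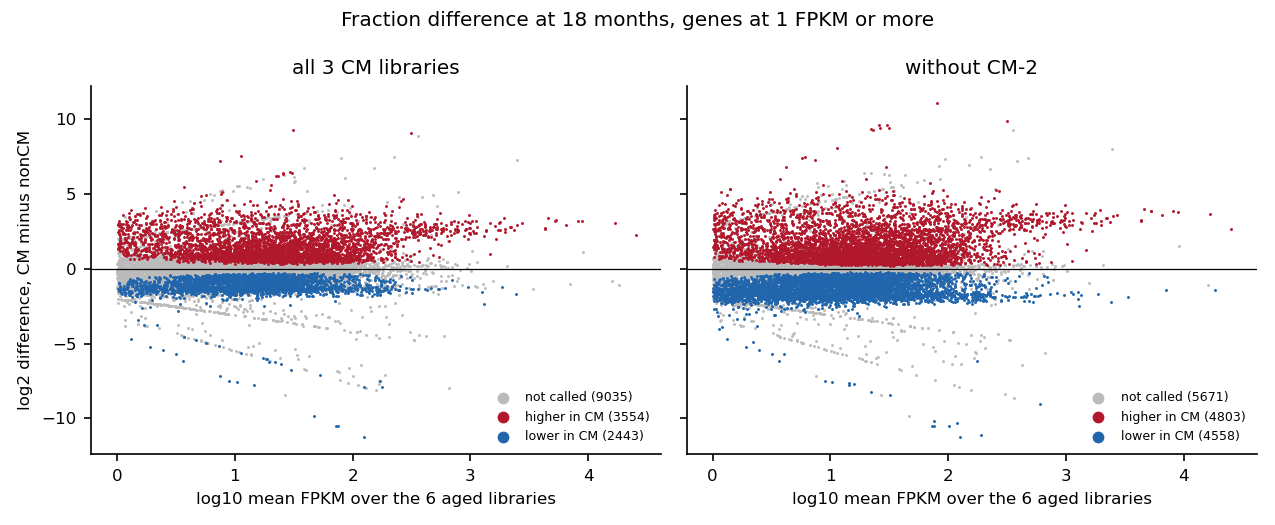
Log2 difference between the fractions (CM minus nonCM, y axis) against log10 mean FPKM over the 6 aged libraries (x axis) for the 15032 genes, with all 3 CM libraries (left) and without CM-2 (right). Genes called higher in CM are red (3554 and 4803) and genes called lower are blue (2443 and 4558), more red than blue points lie 2 or more from 0 (1072 and 49 with all libraries), and the blue points far below 0 include genes that are listed at 0 in CM.

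Myl2, the regulatory light chain of ventricular myosin, was the most abundant named protein-coding gene of the CM fraction (30578 FPKM on average), followed by Mb, the oxygen carrier myoglobin (16363 FPKM), and Tnni3, cardiac troponin I (14989 FPKM). Gm11966, a gene model of unnamed function, was above them at 42346 FPKM and was higher in CM too (difference 2.27, adjusted p = 0.0302). In nonCM several models of small or unnamed RNAs led (mmu-mir-703 at 24324 FPKM), and FPKM of such short models is unreliable. The leading protein-coding genes of nonCM were Fabp4, a fatty acid carrier of capillary endothelium (4569 FPKM), and Gsn, the actin-severing gelsolin (3500 FPKM). Myl2 came next at 3167 FPKM, so that a ventricular myosin gene was among the most abundant transcripts of the non-cardiomyocyte fraction as well.

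Genes of the sarcomere were abundant in the CM fraction. Their summed level was 105061, 161349 and 37503 FPKM in CM and 8831, 9167 and 12306 FPKM in nonCM, which is 10.99% and 1.94% of all FPKM on average. Each CM library was above each nonCM library, with CM-2 at 28.2% of the mean of the other 2 CM libraries. Of 28 genes, 25 were higher in CM, with and without CM-2, and the median difference was 3.24 (3.85 without CM-2), against -0.09 over all genes tested. The count without CM-2 includes Tnnt2, by which CM-2 was chosen, and genes that follow it, so for these it is no independent test. Myl2 stood at 31325, 48627 and 11782 FPKM in CM and at 2708, 2917 and 3877 FPKM in nonCM (difference 3.06, adjusted p = 0.00541). Actc1, cardiac actin, stood at 8620, 13822 and 3114 FPKM in CM and at 643, 638 and 814 FPKM in nonCM (difference 3.37, adjusted p = 0.0022). Both genes kept the order CM-1, CM-0, CM-2 and did not overlap. Myh7, the slow myosin heavy chain, had the largest difference of the group at 4.36 (125, 186 and 49.6 FPKM against 4.68, 6.41 and 4.25 FPKM), followed by Ttn, the spring protein titin, at 4.24. The atrial light chains Myl4 and Myl7 did not pass the test (adjusted p = 0.283 and 0.422).

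Myh6, the main myosin heavy chain of the adult mouse heart, ran against its group. It was listed at 0 in all 3 CM libraries and at 115, 172 and 165 FPKM in nonCM. Atp2a2, the calcium pump of the sarcoplasmic reticulum, was likewise listed at 0 in CM and at 131, 162 and 144 FPKM in nonCM. An exact 0 in such a table can be a failed estimate, and cardiomyocytes use both genes, so no fold change is given. Among genes with at least 20 FPKM in each library of one fraction, Mir23a and Snord42b were also listed at 0 in CM, and Mir1938 was listed at 0 in nonCM. All 37 mitochondrially encoded genes were listed at 0 in all 12 libraries.

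The promoters of sarcomere genes are shown because 25 of 28 genes of this group were higher in the same fraction. RefSeq promoters on GRCm38.p6 were found for 24 of the 28 genes (32 promoters) and searched over 250 bases before the start on both strands. The M-CAT element, bound by TEAD factors (CATTCC), occurred in 31.2% of these promoters and in 12.6% of all 32851 promoters. The CArG box, bound by serum response factor, occurred in 25.0% against 1.47%, and the MEF2 box in 9.38% against 0.508%. GATA sites (AGATAA) occurred in 18.8% against 9.99%, and TATA boxes (TATAAA) in 6.25% against 12.4%. Promoters of described genes that were called in neither fit held the M-CAT element in 9.86%, the CArG box in 1.49%, the MEF2 box in 0.426%, GATA sites in 5.27% and TATA boxes in 6.17%, so the share of TATA boxes was close to that of described genes in general. A match is a description of the sequence and not evidence of binding. The 120 bases before the start of 5 genes follow, 5′ to 3′ on the gene's strand, with the M-CAT element (Tnnt2, and on the opposite strand Tnnc1 and Tpm1) or the CArG box (Actc1, Myl3) in capitals.
Tnnt2: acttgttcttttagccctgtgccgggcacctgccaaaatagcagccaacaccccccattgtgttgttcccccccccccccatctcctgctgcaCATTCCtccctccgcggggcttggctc
Tnnc1: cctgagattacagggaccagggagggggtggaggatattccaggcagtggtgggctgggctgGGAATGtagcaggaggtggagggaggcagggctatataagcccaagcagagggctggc
Tpm1: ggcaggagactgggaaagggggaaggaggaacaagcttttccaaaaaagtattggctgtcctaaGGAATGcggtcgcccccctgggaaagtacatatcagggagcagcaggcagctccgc
Actc1: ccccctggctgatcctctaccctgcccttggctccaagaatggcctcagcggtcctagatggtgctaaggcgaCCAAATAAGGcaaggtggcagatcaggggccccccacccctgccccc
Myl3: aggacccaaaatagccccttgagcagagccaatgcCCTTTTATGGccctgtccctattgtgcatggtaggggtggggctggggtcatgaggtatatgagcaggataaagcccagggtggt
The windows lie at chr1:135836214-135836333 (Tnnt2, plus strand), chr14:31208192-31208311 (Tnnc1, the calcium sensor troponin C, plus strand), chr9:67049214-67049333 (Tpm1, alpha-tropomyosin, minus strand), chr2:114052876-114052995 (Actc1, minus strand) and chr9:110763558-110763677 (Myl3, the essential light chain of ventricular myosin, plus strand). The element began 27 bases before the start in Tnnt2, 58 in Tnnc1, 56 in Tpm1, 47 in Actc1 and 85 in Myl3.

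Calcium handling and membrane excitability followed the sarcomere. Of 17 genes of calcium handling, 13 were higher in CM in both fits (median difference 3.11, and 3.71 without CM-2). Ryr2, the calcium release channel, stood at 140, 235 and 33.8 FPKM in CM and at 2.66, 4.38 and 2.93 FPKM in nonCM (difference 4.95, SE 0.66, adjusted p = 0.00198). Hrc, a calcium-binding protein of the sarcoplasmic reticulum, stood at 522, 824 and 145 FPKM against 14.9, 17.9 and 17.2 FPKM (difference 4.57, adjusted p = 0.00193). CM-2, the lowest CM library, was well above the highest nonCM library for both. Pln, the inhibitor phospholamban, was the most abundant gene of the group and higher by 3.11. Fkbp1b, a regulator of the release channel, and Itpr2, an inositol trisphosphate receptor, differed by -1.02 (adjusted p = 0.0828) and -1.003 (adjusted p = 0.0528), and both were lower in CM without CM-2. Sln, which encodes the atrial pump inhibitor sarcolipin, did not pass the test.

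Of 16 ion channel genes, 14 were higher in CM in both fits (median 3.21, and 3.77 without CM-2). Kcnj3, a subunit of the acetylcholine-gated potassium channel, stood at 24.7, 46.5 and 7.75 FPKM in CM and at 0.666, 1.04 and 0.755 FPKM in nonCM (difference 4.52, adjusted p = 0.00369). Its partner Kcnj5 was higher by 3.79, and the libraries of Kcnj3 did not overlap. The pacemaker channels Hcn2 (2.90) and Hcn4 (3.21) were higher too, at low levels of 0.869 to 8.11 FPKM in the CM libraries. Kcna5, a delayed rectifier potassium channel, was the exception that was lower in CM (18.8, 9.26 and 27.7 against 41.5, 44.5 and 33.6 FPKM, difference -1.22, adjusted p = 0.0423).

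Of 11 genes of the intercalated disc, 10 were higher in CM in both fits, with a median of 3.62 (4.24 without CM-2), the largest of the lists with more than 1 gene. Dsc2 (4.03), Dsp (3.92) and Dsg2 (3.60), which form desmosomes, and Cdh2, the adhesion molecule N-cadherin (3.91), were among the members with large differences. Gja1, the main gap junction protein of the ventricle, had the smallest difference of those called, at 2.19 (278, 329 and 83.3 against 48.1, 46.9 and 35.0 FPKM). Jup, plakoglobin, which endothelial junctions use as well, did not pass the test (164, 142 and 171 against 190, 160 and 246 FPKM, adjusted p = 0.268).

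Receptors and signalling genes of the autonomic nervous system were mostly higher in CM. Of 13 genes, 10 were higher in CM (11 without CM-2) and the median difference was 1.67, and 1 was lower in both fits. Chrm2, the muscarinic receptor of the vagus, was higher by 4.30, Adra1b by 3.90, Adra1a by 3.28 and Adrb1, the main cardiac beta-adrenergic receptor, by 2.70. Adrb1 stood at 9.61, 14.2 and 4.78 FPKM in CM and at 1.24, 1.17 and 1.33 FPKM in nonCM. The libraries of Adrb1 did not overlap, and CM-2 was the lowest of the CM libraries.

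Of 18 cardiac transcription factors, 11 were higher in CM and none was lower (14 and 1 without CM-2, with a median of 1.26 and 1.62). Myocd, a cofactor of serum response factor, had the largest difference at 3.85, followed by Smyd1, a muscle methyltransferase, at 3.65, Irx4, a ventricular homeobox gene, at 3.15, and Nkx2-5, a cardiac homeobox gene, at 3.07. Nkx2-5 stood at 52.8, 65.5 and 22.2 FPKM in CM and at 4.60, 3.80 and 7.02 FPKM in nonCM. Gata4 and Gata6 differed less, by 1.30 and 1.22, and were at 23.9 to 29.6 and 10.2 to 10.5 FPKM in nonCM. Tbx20 (adjusted p = 0.738), Mef2c (0.477) and Hey2 (0.469) did not pass the test in either fit. Prdm16, which was at 7.45, 6.78 and 12.7 against 10.9, 9.25 and 14.3 FPKM, was lower in CM without CM-2.

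The genes of energy metabolism were higher in CM almost without exception. Of 73 nuclear genes of oxidative phosphorylation, 73 were higher in both fits (median difference 2.50, and 3.05 without CM-2), and of 18 genes of the citric acid cycle 18 were higher (2.58 and 3.14). The summed level of oxidative phosphorylation was 93536 ± 50336 FPKM in CM and 13749 ± 1704 FPKM in nonCM (SD, n = 3 each), which is 10.3% and 2.64% of all FPKM. Cox6a2, the muscle form of a cytochrome c oxidase subunit, led with 3.42, and Cox8a, the general form of another subunit, had the smallest difference at 0.82. Atp5b, the catalytic subunit of ATP synthase, was at 8141, 11231 and 3423 FPKM in CM and at 932, 929 and 1222 FPKM in nonCM. Idh2, mitochondrial isocitrate dehydrogenase, led the citric acid cycle (3.10, 1886, 2815 and 669 against 152, 171 and 217 FPKM). CM-2 was lowest and CM-1 highest among the CM libraries for both genes, as in the sarcomere.

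Of 24 genes of fatty acid uptake and oxidation, 23 were higher in CM in both fits (median 2.76, and 3.34 without CM-2). Cpt1b, the muscle enzyme that admits fatty acids to mitochondria, was higher by 4.14 (454, 792 and 167 against 15.9, 27.7 and 24.8 FPKM). Cd36, the fatty acid translocase, was the exception, with 870, 1051 and 990 FPKM in CM and 999, 1053 and 1139 FPKM in nonCM (adjusted p = 0.575). Capillary endothelium is known to use Cd36 as well. Pdk4 and Ucp3, which rise with fatty acid supply, were higher by 2.65 and 3.18, and CM-1 stood apart from the other 2 CM libraries for both (Pdk4 at 56.5, 249 and 34.9 FPKM, Ucp3 at 8.57, 41.9 and 6.26 FPKM).

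Of 21 genes of glucose use, 20 were higher in CM (median 2.53, and 3.11 without CM-2). Slc2a4, the insulin-responsive glucose transporter GLUT4, was higher by 3.70 (211, 317 and 70.3 against 12.0, 13.02 and 13.6 FPKM), while Slc2a1, the general transporter GLUT1, did not pass the test (10.2, 10.7 and 8.04 against 7.76, 7.67 and 6.51 FPKM, adjusted p = 0.292). Gapdh was listed at 4.45 to 19.2 FPKM, far below its neighbours in glycolysis, and its reads can be shared with near-identical copies, so its value is uncertain. Of 10 genes of ketone use and creatine energy transfer, 9 were higher in CM (median 3.08), among them Oxct1 (2.97) and Bdh1 (3.56) of ketone oxidation, Slc16a1, a lactate and ketone transporter (3.72), and Ckmt2, mitochondrial creatine kinase (3.60). Ckb, the brain form of creatine kinase, did not pass the test with all libraries.

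Among regulators of metabolism, 8 of 11 were higher in CM in both fits (median 2.15). Ppargc1a, the coactivator of mitochondrial biogenesis, stood at 36.0, 53.9 and 9.04 FPKM in CM and at 1.86, 2.42 and 2.55 FPKM in nonCM (difference 3.47). The estrogen-related receptors Esrrb (3.36), Esrrg (3.24) and Esrra (2.15), Ppara (2.47) and Rxrg (2.98) were higher as well. Pparg, the receptor of the family that is best known from fat cells, was lower in CM (10.9, 8.56 and 19.97 against 24.3, 35.5 and 29.2 FPKM, difference -1.24, adjusted p = 0.0246). Ppard did not pass the test in either fit (adjusted p = 0.321).

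Promoters of oxidative phosphorylation genes are shown for comparison, since the whole group was higher in CM but is not restricted to muscle. RefSeq promoters were found for 60 of 73 genes (65 promoters). The core of ETS-family sites (CCGGAA, which can share letters with an M-CAT element) occurred in 27.7% of them, in 3.12% of the sarcomere promoters and in 12.0% of all promoters, but also in 23.8% of the promoters of described genes called in neither fit and in 21.4% of those called higher in CM in both fits. The M-CAT element occurred in 12.3%, close to the 12.6% of all promoters, and no CArG box or MEF2 box was found. The estrogen-related receptor site (TNAAGGTCA) occurred in 3.08% (2 of 65 promoters) against 1.14% of all promoters. It also occurred in 3.12% of the sarcomere promoters (1 of 32). The capitals mark the ETS core, which in Cox6b1 lies on the opposite strand.
Cox6b1: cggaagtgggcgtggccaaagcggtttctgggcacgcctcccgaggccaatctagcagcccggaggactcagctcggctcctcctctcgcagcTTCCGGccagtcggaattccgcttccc
Ndufs3: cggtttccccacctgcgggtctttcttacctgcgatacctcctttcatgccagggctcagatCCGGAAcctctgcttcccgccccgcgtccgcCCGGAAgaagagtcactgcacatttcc
Uqcr11: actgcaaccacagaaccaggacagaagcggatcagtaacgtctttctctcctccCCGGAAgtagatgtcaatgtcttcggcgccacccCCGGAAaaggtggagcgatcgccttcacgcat
These windows belong to Cox6b1, a subunit of cytochrome c oxidase (chr7:30626115-30626234, minus strand), Ndufs3, a core subunit of complex I (chr2:90904722-90904841, minus strand), and Uqcr11, a subunit of complex III (chr10:80406822-80406941, minus strand). Cox6b1 was higher in CM by 2.42, Ndufs3 by 2.27 and Uqcr11 by 2.66.

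For 19 proteins, a muscle isoform and another isoform, in most pairs a general one, come from different genes, and both were compared as a ratio within each library. FPKM is relative to length, so the ratio compares levels and does not depend on the scaling of a library. The ratio of the muscle to the general isoform was higher in each CM library than in each nonCM library for 18 of 19 pairs, with a median difference of 2.98 on the log2 scale over all pairs. A two-sided exact permutation test gave p = 0.1 for these pairs, the smallest possible, and 0.106 after Benjamini-Hochberg adjustment over 19 pairs. The largest differences were those of Actn2 over Actn4 (alpha-actinin, 4.62), Cpt1b over Cpt1a (4.58) and Fabp3 over Fabp4 (fatty acid carriers, 4.47). Fabp4 is a gene of the endothelial list and not a general isoform, so the ratio of this pair sets a gene of muscle against one of capillary endothelium. Cox6a1 was at 234, 230 and 233 FPKM in CM and at 187, 170 and 202 FPKM in nonCM, whereas Cox6a2 was at 4045, 5098 and 1550 FPKM and at 273, 269 and 352 FPKM. The difference of this pair therefore came almost wholly from the muscle isoform. The muscle isoform was called higher in CM in 19 of 19 pairs in both fits. The general isoform was lower in 2 pairs, Actb, cytoplasmic actin (-0.77), and Tpm4, a cytoplasmic tropomyosin (-1.29), and higher in 7 pairs (7 lower and 8 higher without CM-2). The ratio of Myl2 over Myl9, regulatory myosin light chains, overlapped between the fractions (adjusted exact p = 0.2).

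**Figure D3:**
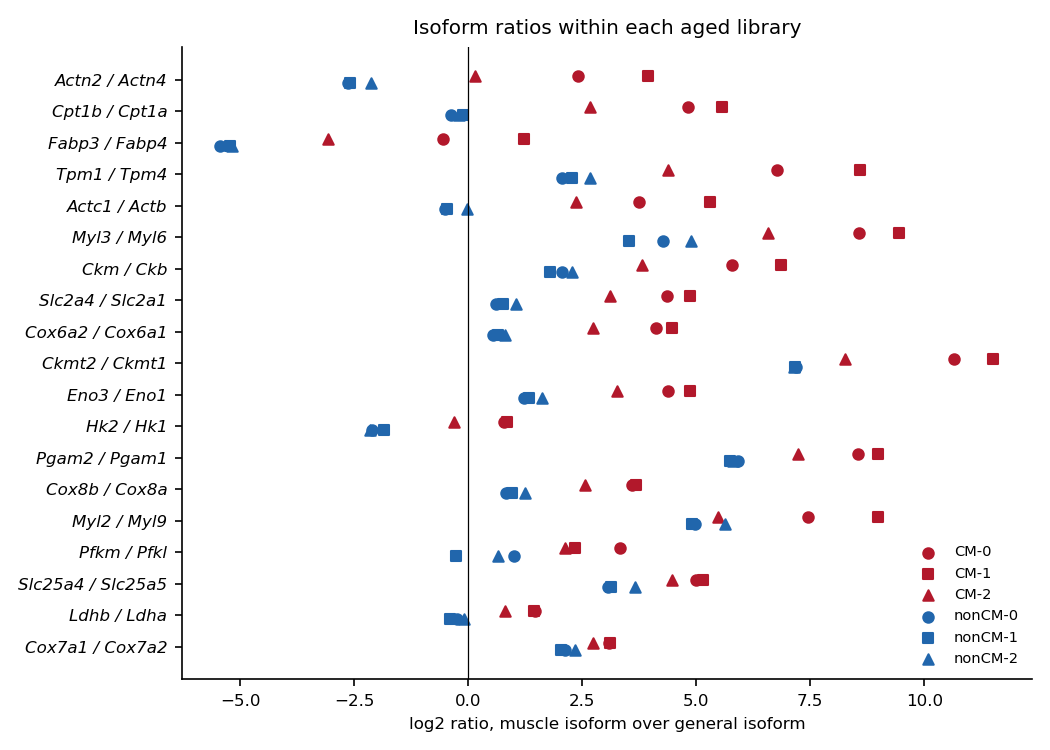
Log2 ratio of the FPKM of the muscle isoform to that of the general isoform (x axis) in each aged library for 19 proteins, with CM in red and nonCM in blue and symbols for the library number. The CM libraries lie to the right of all nonCM libraries for 18 pairs, with CM-2 (triangle) usually nearest to nonCM.

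Of 10 genes of the fetal and stress program, 6 were higher in CM (median 3.11). Nppb, the natriuretic peptide of strained ventricular muscle, stood at 633, 725 and 208 FPKM in CM and at 21.0, 20.8 and 13.3 FPKM in nonCM (difference 4.66, adjusted p = 0.0023). Ankrd1, a stretch-responsive ankyrin repeat protein (3.36), Acta1, skeletal actin (3.35), and Fhl2, a LIM protein (3.20), were higher too. Ctgf, a matricellular growth factor, and Gdf15, a stress cytokine, did not pass the test. Nppa, the atrial natriuretic peptide, did not pass it either, although its libraries did not overlap (746, 218 and 454 against 106, 26.5 and 50.0 FPKM, difference 3.01, SE 1.36, adjusted p = 0.108).

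The summed level of atrial genes took another order of CM libraries than that of the sarcomere, as did that of the red cell list. With limma, 0 of 9 were called in either fit, and 1 of them had an unadjusted p under 0.05. With the column number as a block, 7 of the 9 were called higher in CM, among them Myl7 (adjusted p = 0.0194) and Myl4 (adjusted p = 0.0187), although the sources do not give the number as a pairing. The summed level was 886 ± 507 FPKM in CM and 199 ± 100 FPKM in nonCM. Myl7, the atrial regulatory light chain, stood at 243, 48.5 and 95.5 FPKM in CM and at 69.8, 19.9 and 46.5 FPKM in nonCM, and Myl4, the essential one, at 213, 68.6 and 94.3 FPKM and at 54.4, 17.5 and 35.2 FPKM. In both genes and in both fractions the library numbered 0 was highest and the one numbered 1 lowest. CM-1, the library of highest Tnnt2, was thus the lowest of the CM libraries in atrial genes. The share of atrial tissue in each preparation is not given in the sources used here, and its part was not tested.

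The protein-coding genes with the largest differences that passed the test in both fits, averaged 10 FPKM or more and did not overlap were led by Lrrc14b, a leucine-rich repeat protein gene (chr13:74359578-74364005, minus strand). It stood at 39.7, 66.9 and 11.5 FPKM in CM and at 0.418, 0.636 and 1.26 FPKM in nonCM (difference 5.29, SE 0.59, adjusted p = 0.00193). Of the 2205 genes that met the rule, the next included Ryr2 and Nppb, described above, then Yipf7 (4.60), Hrc, Hhatl (4.55), Corin, the protease that activates natriuretic peptides (4.53), Kcnj3, Rnf128, a ubiquitin ligase gene (4.47), and Asb11 (4.41). All 12 genes had CM-1 highest and CM-2 lowest among the CM libraries.

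Of 575 lncRNAs, 128 were higher in CM and 70 lower (151 and 147 without CM-2). With all libraries these are 22.3% and 12.2%, near the 19.5% and 13.1% of all genes tested. By the same rule with a lower level, Gm10435 (chr11:59002910-59007293, plus strand) led at 25.4, 50.0 and 12.1 FPKM in CM and 0.639, 2.895 and 0.885 FPKM in nonCM (difference 4.27, adjusted p = 0.00211). Gm14453 (3.37), Gm5860 (3.36), Gm5532 (3.30) and 1500017E21Rik (3.27) followed. Mhrt, a cardiac lncRNA antisense to Myh7, was higher by 3.09 (70.0, 143 and 27.7 against 8.67, 9.34 and 5.30 FPKM), but whether reads were counted by strand is not given in the sources used here, and without strand its reads and those of Myh7 cannot be told apart. BC037032 was higher too, by 1.63. Malat1 and Neat1, abundant nuclear lncRNAs of most cells, did not pass the test (280, 374 and 168 against 258, 318 and 215 FPKM for Malat1, and a difference of -0.06 for Neat1, adjusted p = 1 and 0.912), and Meg3, an imprinted lncRNA, was lower in CM (-1.39, adjusted p = 0.0312). The 5 lncRNAs with the largest differences on the nonCM side were Gm17111 (-1.94), AC170864.1 (-1.90), Has2as, antisense to a hyaluronan synthase gene (-1.82), Gm11816 (-1.78) and Gm15674 (-1.76).

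Fibroblast genes were mostly lower in CM. Of 21 genes, 17 were lower in CM with all libraries and 21 without CM-2 (median difference -1.54 and -2.04). Their summed level was 3231 ± 2129 FPKM in CM and 7961 ± 121 FPKM in nonCM. Pdgfra, a receptor that marks cardiac fibroblasts, stood at 17.4, 6.16 and 27.5 FPKM in CM and at 46.5, 52.0 and 52.8 FPKM in nonCM (difference -1.80, adjusted p = 0.0129). Dcn, the collagen-binding decorin, stood at 744, 260 and 1151 FPKM against 1839, 1895 and 1681 FPKM (difference -1.57, adjusted p = 0.03). Neither gene overlapped, and CM-1 was lowest and CM-2 highest of the CM libraries in both. Postn, the matrix protein of activated fibroblasts, was at 85.3, 22.0 and 112 FPKM against 134, 114 and 100 FPKM, overlapped, and was called without CM-2 alone (adjusted p = 0.151 and 0.031).

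Of 38 genes of the extracellular matrix, 27 were lower in CM with all libraries and 36 without CM-2 (median -1.37 and -1.83). Col6a3, a chain of microfibrillar collagen, had the largest difference (-1.83, adjusted p = 0.00673), and Lama2, the laminin chain of the muscle basement membrane, passed at -1.27 (25.6, 17.3 and 33.9 against 54.8, 60.8 and 63.3 FPKM). The basement membrane collagens Col4a1 (-1.29) and Col4a2 (-1.14) and the perlecan gene Hspg2 (-1.14) were lower too. Lamb2, another laminin chain, was the single gene of the group on the other side (102, 92.0 and 84.0 against 78.6, 75.6 and 84.5 FPKM), called higher in CM without CM-2 (0.29, adjusted p = 0.0243), and its direction turned with the same FPKM sum in every library. Timp1, an inhibitor of matrix proteases, passed in neither fit.

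Endothelial genes were lower in CM in 12 of 28 cases with all libraries and in 26 without CM-2 (median -1.24 and -1.78). The summed level was 4989 ± 3434 FPKM in CM and 10186 ± 652 FPKM in nonCM. Kdr, the main receptor of vascular endothelial growth factor, stood at 105, 48.1 and 211 FPKM in CM and at 272, 264 and 318 FPKM in nonCM (difference -1.47, adjusted p = 0.0238). Cdh5, the junction protein VE-cadherin, stood at 145, 54.9 and 253 FPKM against 355, 292 and 349 FPKM (difference -1.39, adjusted p = 0.0368). CM-2 was the highest CM library and lay below the lowest nonCM library for both. Fabp4, the most abundant gene of the list, missed the threshold with all libraries (1773, 882 and 3897 against 4425, 4254 and 5027 FPKM, adjusted p = 0.0534) and passed it without CM-2 (adjusted p = 0.000926). Aplnr, the apelin receptor, and Plvap, a protein of fenestrated and venous endothelium, passed in neither fit.

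Of 7 lymphatic genes, 3 were lower in CM with all libraries and 6 without CM-2, among them Flt4, the lymphatic growth factor receptor (-1.39), and Mmrn1 (-1.73). Prox1, the transcription factor that specifies lymphatic endothelium, was instead higher in CM in both fits (14.9, 24.0 and 6.13 against 2.49, 2.50 and 2.44 FPKM, difference 2.35, adjusted p = 0.00477). Cardiomyocytes are known to express Prox1 as well.

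Of 25 macrophage genes, 7 were lower in CM with all libraries and 23 without CM-2 (median -1.41 and -1.90), and their summed level was 1094 ± 733 against 2281 ± 120 FPKM. Lyz2, the lysozyme gene and the most abundant of them, stood at 313, 90.8 and 488 FPKM in CM and at 587, 604 and 642 FPKM in nonCM (adjusted p = 0.0709, and 0.0112 without CM-2). Mrc1, the mannose receptor of resident macrophages, was lower in both fits (24.5, 7.14 and 33.0 against 49.7, 52.7 and 47.4 FPKM, difference -1.47, adjusted p = 0.0322). No library of one fraction overlapped the other for either gene. Of 7 genes of MHC class II antigen presentation, limma called 0 with all libraries, 7 had an unadjusted p under 0.05, and 7 were called lower without CM-2 (median -1.50 and -2.05). Of 15 lymphocyte genes, Cd4 alone was called with all libraries and 4 were called without CM-2 (median -1.49 and -2.18). Of 4 granulocyte genes limma called 0 with all libraries, 0 had an unadjusted p under 0.05, and 1 (Csf3r) was called without CM-2. With the column number as a block, 12 of 25 macrophage genes, 7 of 7 MHC class II genes and 9 of 15 lymphocyte genes were called lower. The sources do not give the number as a pairing, and deviations of aged libraries with the same number correlated by 0.045, -0.005 and -0.009.

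Of 22 chemokines and cytokines, 8 were lower in CM and 17 without CM-2, and none was higher (median -1.37 and -1.72). Cxcl12, the stromal chemokine, was the most abundant (124, 67.8 and 254 against 322, 343 and 365 FPKM, difference -1.41, adjusted p = 0.0191). Cxcl14 (-1.85), Cxcl1 (-1.73), Tnf (-1.56), Ccl2 (-1.39) and Tgfb1 (-1.08) were lower too. Il6, which fell under the level described here and is not among the 22, passed in neither fit (0.594, 0.175 and 0.556 against 1.04, 0.992 and 0.560 FPKM).

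The lists of pericyte and smooth muscle genes had medians of opposite direction. Of 8 pericyte genes, 6 were lower in CM with all libraries and 7 without CM-2 (median -1.29 and -1.78), and the summed level was 598 ± 335 against 1241 ± 89.2 FPKM. Kcnj8, a potassium channel subunit of pericytes, stood at 36.4, 18.8 and 74.0 FPKM in CM and at 102, 102 and 106 FPKM in nonCM (difference -1.48, adjusted p = 0.0211). Abcc9, its sulfonylurea receptor partner, did not pass the test, with each CM library below each nonCM library (71.3, 89.7 and 67.8 against 90.2, 94.4 and 92.1 FPKM, adjusted p = 0.211), and Kcnj11, the partner of sulfonylurea receptors in heart muscle, was higher in CM by 3.83.

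Smooth muscle genes were mostly higher in the CM fraction, the direction opposite to that of the endothelial and pericyte lists. Of 7 genes, 5 were higher in CM with all libraries and 4 without CM-2 (median 1.24 and 1.09). Their summed level was 525, 477 and 711 FPKM in CM and 220, 265 and 201 FPKM in nonCM, and the fractions did not overlap. Acta2, smooth muscle actin, stood at 190, 145 and 280 FPKM in CM and at 58.9, 79.4 and 51.9 FPKM in nonCM (difference 1.66, SE 0.34, adjusted p = 0.00741, and 1.41, adjusted p = 0.00868, without CM-2). Cnn1, calponin, which is specific for differentiated smooth muscle, stood at 6.34, 3.51 and 12.0 FPKM against 1.45, 2.21 and 0.931 FPKM (difference 2.08, adjusted p = 0.0264). CM-2, the library with the least Tnnt2, was the highest in both, and CM-1 the lowest of the CM libraries. Actg2, enteric smooth muscle actin (1.85), and Smtn, smoothelin (0.92), were called in both fits, and Smtn had the order of cardiac genes instead (154, 239 and 135 against 87.7, 91.8 and 91.7 FPKM). Tagln, an actin-binding protein, lost the call without CM-2 (adjusted p = 0.0438 and 0.0955), and Myh11, smooth muscle myosin, passed in neither fit (42.3, 21.7 and 64.0 against 19.4, 23.6 and 14.7 FPKM, adjusted p = 0.0534 and 0.127). With the same FPKM sum in every library the median of the list was 0.56.

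**Figure D4:**
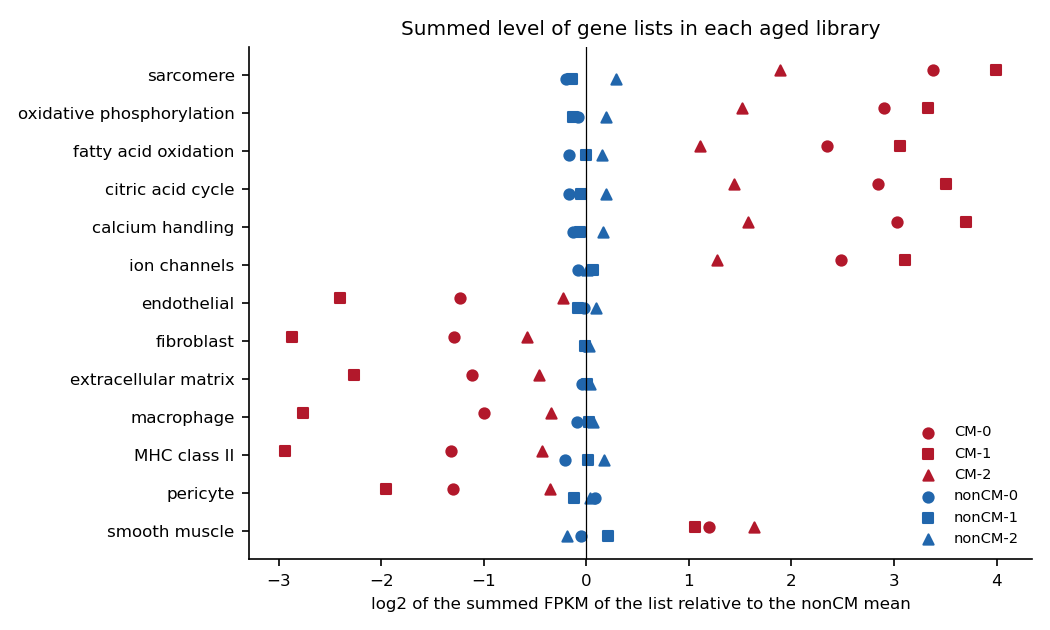
Log2 of the summed FPKM of 13 gene lists in each aged library relative to the mean of the nonCM libraries (x axis), with CM in red and nonCM in blue. In the sarcomere and oxidative phosphorylation lists CM-1 lies farthest to the right and CM-2 nearest to nonCM, in the endothelial, fibroblast, matrix, macrophage, MHC class II and pericyte lists CM-1 lies farthest to the left, and in the smooth muscle list CM-2 is the highest of the libraries.

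Red cell genes had the most negative list median (-2.29, and -2.43 without CM-2), from 7 entries of which 3 were called in both fits. These 3 are Alas2, the heme synthesis enzyme of red cells (14.7, 4.13 and 11.7 against 64.0, 47.2 and 35.0 FPKM, difference -2.39, adjusted p = 0.0432), and Hbb-b1, beta-globin, which the list holds under 2 names (691, 191 and 525 against 2780, 2078 and 1498 FPKM, difference -2.32, adjusted p = 0.0445). The calls of Alas2 and Hbb-b1 lay close to the threshold. Both were lost when any other aged library was left out in place of CM-2 (limma adjusted p = 0.0685 to 0.159), although both genes stayed lower in CM. They were also lost without the filter on low values and without the trend. Globin genes are near-identical copies, and their shares of reads are uncertain. For Alas2 and Hbb-b1 CM-0 and not CM-2 was the CM library nearest to nonCM.

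Few genes of other minor cell types were called. Of 7 Schwann cell and neural genes limma called 0 with all libraries, 0 had an unadjusted p under 0.05, and 3 were called lower without CM-2. Of 7 mesothelial genes it called 0, 1 had an unadjusted p under 0.05 (Wt1, -0.99), and 1 was called lower without CM-2. The fat cell genes Adipoq and Plin1 were below 0.5 FPKM in all 6 libraries. Cidea, a lipid droplet protein known from brown fat, was the one gene of the fat cell list that reached the level described here, and it was higher in CM (28.7, 40.3 and 9.30 against 1.81, 1.13 and 2.34 FPKM, difference 3.63, adjusted p = 0.00198).

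Of 17 growth factor ligands, 4 were higher in CM and 3 lower (5 and 9 without CM-2). With all libraries these shares were close to the 23.6% and 16.3% of all described genes. Vegfa, which acts on endothelial cells, stood at 324, 503 and 102 FPKM in CM and at 22.6, 40.7 and 28.0 FPKM in nonCM (difference 3.10, SE 0.50, adjusted p = 0.00278). Vegfb (2.67), Fgf1 (2.93) and Pdgfa (0.86) were the others that were higher, and Pdgfb (-1.21), the Notch ligand Dll4 (-1.27) and Hgf (-1.35) were lower. Of 23 receptors, 16 were lower in CM and 1 was higher (19 and 2 without CM-2). The receptors of VEGF, Kdr, Flt1 (-1.39), Flt4 (-1.39), Nrp1 (-1.13) and Nrp2 (-1.27), were all lower in CM. Igf1r, the receptor of insulin-like growth factor, was lower by 0.83 in log2 units (4.15, 2.91 and 3.93 against 6.88, 6.49 and 6.22 FPKM), with an adjusted p of 0.00435. Erbb3, a neuregulin receptor, was the one that was higher (3.52, 4.93 and 2.66 against 1.48, 1.503 and 2.11 FPKM, difference 1.05, adjusted p = 0.0216). Erbb4, the neuregulin receptor of cardiomyocytes, fell under the level described here but was called too (1.102, 2.18 and 0.437 against 0.0499, 0.0978 and 0.0700 FPKM, difference 2.73, adjusted p = 0.00485).

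Cell protection and turnover gave mixed pictures. For comparison with the lists of cell protection, apoptosis, proliferation and senescence, 23.6% of all described genes were higher in CM and 16.3% lower. Without CM-2 these shares were 32.0% and 30.3%. Of 22 genes of the antioxidant list, 11 were higher in CM and none lower (13 and 4 without CM-2). The median was 0.61 and became -0.07 with the same FPKM sum in every library. The most abundant gene of the list, Crip2, encodes what the paper describes as a cardiac transcription factor, so the list is not limited to antioxidant genes. The mitochondrial enzymes Sod2 (2.62), Prdx3 (2.42) and Prdx5 (2.27) led together with the quinone reductase Nqo1 (2.44). Sod2 stood at 167, 253 and 56.6 FPKM in CM and at 21.4, 18.9 and 25.3 FPKM in nonCM. Sod3, the secreted superoxide dismutase, Hmox1, heme oxygenase, Gpx1 and Gclc were the 4 that were lower without CM-2. The transcription factor gene Nfe2l2 passed in neither fit (-0.36, adjusted p = 0.137).

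Of 8 anti-apoptotic genes, 4 were lower in CM in both fits, Bcl2 (-1.15), Birc3 (-1.02), Xiap (-0.95) and Cflar (-0.68), and of 13 pro-apoptotic genes 4 were lower (7 without CM-2), among them Bid (-1.41), Casp8 (-1.34) and Apaf1 (-1.18). Apaf1, the scaffold that activates caspases downstream of cytochrome c, stood at 4.77, 3.54 and 5.74 FPKM in CM and at 9.92, 11.9 and 10.01 FPKM in nonCM (adjusted p = 0.00865). Diablo, a mitochondrial protein that blocks inhibitors of caspases, was higher in CM (63.8, 86.7 and 36.8 against 30.5, 31.2 and 31.0 FPKM, difference 0.93, adjusted p = 0.0236). Bcl2l2, an anti-apoptotic relative of Bcl2, was called higher in CM without CM-2 (0.46, adjusted p = 0.0147), and its direction turned with the same FPKM sum in every library. Mcl1, Bad, Bak1 and Bcl2l11 passed in neither fit.

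Of 16 proliferation genes, 1 was higher in CM and 1 lower (1 and 3 without CM-2). Cenpf, a protein of the kinetochore and nuclear envelope, was the one that was higher (13.01, 19.4 and 8.37 against 3.56, 3.20 and 1.51 FPKM, difference 2.27, adjusted p = 0.0103), and Mcm3, a subunit of the replication helicase, the one that was lower. Mki67, the usual marker of cycling cells, was at 0.978 to 5.17 FPKM in the 6 libraries and passed in neither fit. Of 9 senescence genes, Cdkn1b and Trp53 were lower in CM with all libraries, and Cdkn2a, which encodes p16, was lower without CM-2 (1.06, 0.418 and 1.90 against 1.46, 1.76 and 2.25 FPKM), as was Igfbp3 (-1.87). Without CM-2, 4 genes of the list were called lower and 1 higher. Of all described genes, 16.3% were lower with all libraries and 30.3% without CM-2, and the few calls of these short lists are not read beyond that.

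Of 21 immediate early and heat shock genes that respond to tissue dissociation, 1 was called, the transcription factor Klf6, which was lower in CM (-1.15, adjusted p = 0.0302). Fos stood at 401, 403 and 183 FPKM in CM and at 320, 599 and 216 FPKM in nonCM (adjusted p = 0.835). Hspa1a, an inducible heat shock protein, stood at 46.0, 37.1 and 4.21 FPKM and at 59.4, 90.4 and 5.37 FPKM. In both genes the library numbered 2 was the lowest of each fraction. The summed level of the list was 2323 ± 748 FPKM in CM and 2811 ± 1038 FPKM in nonCM.

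**Figure D5:**
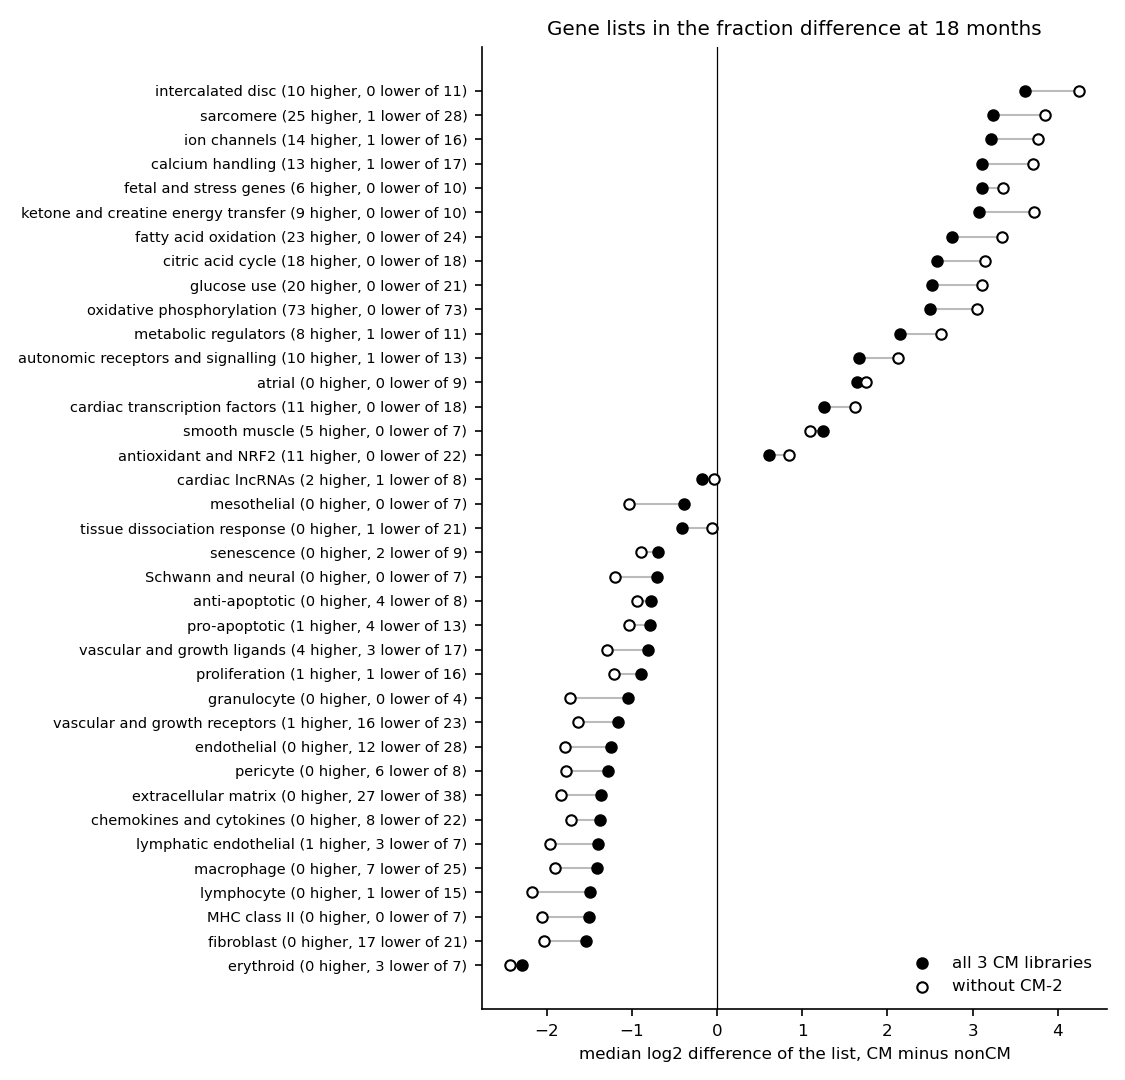
Median log2 difference (CM minus nonCM, x axis) of the 37 gene lists of more than 1 described gene, with all 3 CM libraries (filled) and without CM-2 (open), with the number of genes called higher and lower with all libraries in the labels. Medians on both sides move away from 0 without CM-2 in most lists, and those of the smooth muscle (1.24 to 1.09), tissue dissociation (-0.42 to -0.06) and cardiac lncRNA (-0.17 to -0.04) lists move towards 0.

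The protein-coding genes with the most negative differences, by the same rule as above and out of 1356 that met it, followed Alas2 and Hbb-b1 with Lect1, which encodes a chondromodulin (chr14:79637690-79662170, minus strand). It stood at 6.43, 2.75 and 10.1 FPKM in CM and at 21.3, 31.4 and 20.6 FPKM in nonCM (difference -2.07, SE 0.46, adjusted p = 0.0108). Egfr, the epidermal growth factor receptor (chr11:16752203-16918158, plus strand), stood at 3.61, 1.59 and 9.34 FPKM against 14.6, 15.6 and 17.2 FPKM (difference -2.03, adjusted p = 0.0138). For both genes CM-2 was the CM library nearest to nonCM. Then came Lcp2, an adaptor of immune receptors (-1.98), Abca6 (-1.95), Clip3 (-1.94), Cpxm1 (-1.90), Cxcl14 (-1.85), Scara5, a ferritin receptor (-1.84), Thbs2, a matricellular thrombospondin (-1.83), and Col6a3 (-1.83). The 12 differences on this side ran from -2.39 to -1.83, and the 12 on the CM side from 4.41 to 5.29.

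The difference between the fractions at 18 months was tested against that at 8 weeks as an interaction in the same limma fit. It was called for 6 of the 20038 genes tested (0.0299%), 5 of them among the 15032 genes, of which 226 had an unadjusted p under 0.05. Without CM-2 it was called for 13 of the genes tested (0.0649%), 12 of them among the 15032, and 4 were called in both fits. All 5 of the first fit were short or unnamed models listed at 0 in every library of at least 1 group. The median absolute difference between the fractions was 0.70 at 18 months, 0.93 without CM-2, and 0.78 at 8 weeks. A p that misses the threshold does not show that the differences are alike.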

How the data were processed

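PolyA RNA of cardiomyocyte and non-cardiomyocyte fractions of hearts (8 weeks and 18 months, 3 libraries per fraction and age) was sequenced as single-end reads of 75 bases, which gave 12 libraries. The authors aligned reads with TopHat2 2.0.9 to GRCm38 and computed FPKM values per gene with Cufflinks 2.1, and these FPKM values were deposited. The annotation and the use of strand are not given in the sources used here. Read counts are unknown. The limma p-values of the main fit rest on a spread between libraries that the 4 groups share, not on that of the aged libraries alone. The SE of Tnnt2 was 0.54 in this fit and 0.91 with the 6 aged libraries alone, and that of Nppb was 0.71 and 0.54. Where the aged CM libraries spread more than the other groups, the p-values understate that spread.

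Values were tested as log2(FPKM + 0.1) with limma 3.58.1 (R 4.3.3; group means of all 12 libraries, empirical Bayes with trend, Benjamini-Hochberg adjustment over 20038 genes that averaged 0.1 FPKM or more, threshold 0.05). The fit was repeated without CM-2, the library of lowest Tnnt2. For genes that follow Tnnt2 across the CM libraries its calls are descriptions and not independent tests. On simulated data with 200 of 20038 genes changed by 2 on the log2 scale, the fit recovered 71% of them, and 31% of those changed by 1. With a change of 2, 13 of 155 calls were false. The simulated noise was independent between genes, with a spread averaged over the 4 groups. In the data the aged CM libraries shared an order in most called genes, so these rates may not hold for this comparison. Columns were matched to groups by name, but their numbers differ from the replicate numbers in the labels, and whether both fractions of a number came from the same heart is not given in the sources used here, so the libraries were not paired.

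The genes described and the gene lists were chosen with earlier results of these data known. Named are the markers, members of the lists and isoform pairs, and, per direction, the 12 protein-coding genes with the largest difference among those called in both fits, with a mean of at least 10 FPKM, above 0 in all 6 libraries and without overlap, and 5 lncRNAs by the same rule at a lower level. Some genes that met these rules are not reported here. Genes listed at 0 and genes of the age comparison were named after their values were seen. Biotypes and coordinates came from GENCODE M21 (GRCm38), which matched 36424 of 38282 identifiers (95.1%), and promoters from RefSeq. Figures were drawn with Python 3.11.15 and matplotlib 3.10.9.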

Additional observations from a re-analysis of the deposited data

Results flagged for a closer look

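For 5 genes the difference between the fractions at 18 months differed from that at 8 weeks by the interaction test of limma. All 5 are models of short or unnamed RNAs listed at 0 throughout at least 1 group, so the differences below (18 months minus 8 weeks, log2 scale) depend on the added 0.1 FPKM and are no fold changes. SNORA71, a small nucleolar RNA, had a value of -7.07. It was listed at 0 in the 3 aged CM libraries and at 25.6, 9.42 and 27.0 FPKM in the aged nonCM libraries, and in young mice it was above 0 in all 6 libraries. Gm14422 had a value of -5.25, with 4.88, 2.69 and 3.85 FPKM in aged nonCM and 0 in the 3 other groups. One U6 small nuclear RNA model had a value of 7.21, with 17.8, 12.9 and 13.8 FPKM in aged CM and 0 elsewhere. Another U6 model had a value of 7.42 and was listed at 0 in young CM. Mir1938 had a value of 7.91, with 73.7, 65.1 and 50.1 FPKM in aged CM and 0 in aged nonCM, and was above 0 in all young libraries.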

How the results depend on the processing

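The fraction difference at 18 months was called for 5997 genes (3554 higher and 2443 lower in CM). With the same FPKM sum in every library it was called for 9583 genes (2055 and 7528). Array weights gave 11460 (5579 and 5881). These weights were 12.4 for CM-0 but 0.189 for CM-1 and 0.153 for CM-2, so that this count rests largely on CM-0. The 6 aged libraries alone gave 16 (4 and 12), and the aged libraries alone without CM-2 gave 7979 (4348 and 3631). Leaving out 1 library at a time gave 2467 to 9361 genes (2092 to 4803 higher, 320 to 4558 lower), and the highest of each was without CM-2. The fraction difference at 18 months without the aged cardiomyocyte library of lowest Tnnt2 was 4803 higher and 4558 lower, and with the same FPKM sum 2295 and 8989. The fraction difference, 18 months minus 8 weeks, was called for 5 genes, 2 with a pseudocount of 1, 18 with array weights, and 4 to 13 when 1 library was left out. The causes of the other shifts were not tested.

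The log2 difference of Tnnt2 was 3.18 and, among fits with CM-2, past the threshold except with the 6 aged libraries alone, 1.79 with quantile normalization, 2.50 with the same FPKM sum, and 2.69 to 3.85 when 1 library was left out. The log2 difference of Pecam1 passed it with a minimum mean of 1 FPKM (-1.21), the same FPKM sum (-1.89), quantile normalization (-1.94), array weights (-1.02) and aged libraries alone without CM-2 (-1.72), and ranged from -1.72 to -0.59 when 1 library was left out. The log2 difference of Col1a1 missed it with aged libraries alone (-1.62) and ranged from -2.15 to -0.93. The log2 difference of Csf1r missed it without a filter, without the trend and with aged libraries alone (-1.48), and with aged libraries alone without CM-2 (-1.95), and ranged from -1.95 to -0.77. With the same FPKM sum the log2 difference of Lamb2 became -0.46, the log2 difference of Bcl2l2 -0.37, the log2 difference of Mcl1 -0.63 and the log2 difference of Txn1 -0.48.

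The column numbers were tried as a replicate block, which gave 3237 genes higher and 2688 lower. Deviations of aged libraries with the same number correlated by 0.045, -0.005 and -0.009, and those of young libraries by 0.117, 0.059 and 0.073. In young mice 3 of 3 CM libraries correlated best with their own number, and in aged mice 1 of 3, a hint from the data and not from the design. The block called 7 of 9 atrial genes, 7 of 7 MHC class II genes and 9 of 15 lymphocyte genes, against 0, 0 and 1 without it.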
